A study of Mus musculus with 6 samples.

Results

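The genes described here are 38 genes of DNA replication and deoxynucleotide supply, chosen by symbol from the 31265 genes of the deposited table. They cover the MCM2-7 helicase, the factors that load and start it, the sliding clamp and its loader, the replicative polymerases, the single-strand binding complex RPA, enzymes of Okazaki fragment maturation, ribonucleotide reductase, thymidylate synthase and the E-type cyclins. All 38 were present and all 38 passed the filter of a mean of at least 1 FPKM (fragments per kilobase of transcript, corrected for library depth), so none is missing from the counts below.

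The libraries came from E14Tg2a, a mouse embryonic stem cell line, made to express Grx1-roGFP2 in its nuclei; the excitation ratio of this fluorescent sensor follows the glutathione redox state. The cells had been held in serum with LIF and 2i and were then differentiated as hanging-drop embryoid bodies to day 5. From each of 3 populations (A, B and C), sorting of live cells kept the oxidized 10% and the reduced 10%, so there were 3 oxidized and 3 reduced libraries. Values are listed in the order A, B, C within a group throughout. All 6 libraries are labelled WT and carry the sensor. E14Tg2a is also known as a line that lacks functional Hprt, the enzyme that salvages hypoxanthine and guanine, and that lesion is shared by both groups. Hprt had 0.633, 0.0462 and 0 FPKM in the oxidized and 0.366, 0.0683 and 0.547 FPKM in the reduced libraries, under the filter in both groups. The labels do not say whether A, B and C were clones, cultures or sorting days, so the errors below measure the spread between these populations.

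Replication begins in G1 phase, when the origin recognition complex, CDC6 and CDT1 load MCM2-7 rings on DNA. At the start of S phase, kinases and the proteins CDC45 and GINS turn the rings into active helicases, and polymerases then copy both strands behind them. Ribonucleotide reductase makes the deoxynucleotides for this copying by reducing ribonucleotides, and its active site is re-reduced by electrons from thioredoxin and glutaredoxin. The sensor follows the glutathione redox state in nuclei, and the supply of electrons to the reductase was not measured. Embryonic stem cells divide fast and keep much of this machinery, cyclin E included, at a high level.

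The estimated depth was 1.18e+07 to 1.79e+07 fragments per library, lowest in both libraries of population C. This estimate is rough, as only 29.7% to 31.4% of low values were near whole numbers on the scale it rests on. Of 18 markers of pluripotent and embryonic cell types, 16 were tested and 1 was called by limma, where 0.796% of all tested genes were. This was the primitive streak factor Brachyury (T), lower by 1.53 on the log2 scale (limma adjusted p = 0.0158, and 0.0601 with the population as a block). Markers of one type did not all share a direction: the pluripotency genes Pou5f1, Sox2 and Nanog differed by -0.68, -0.37 and 0.35, and the mesoderm genes Hand1, Kdr and Mesp1 by 0.94, 0.27 and -0.56. The endoderm genes Foxa2, Gata4 and Sox17 differed by 1.00, 0.77 and 0.34. Of the neuroectoderm genes, Nes differed by 0.81, and Pax6 and Sox1 averaged under 1 FPKM and were not tested. Oxidized A and B stood apart from the other 4 libraries in abundant transcripts: the more abundant of the 2 rows for CT010467, a ribosomal RNA locus, read 1410 and 1736 FPKM there and 34120 to 43820 FPKM elsewhere, and the mitochondrial gene mt-Co3 read 2710 and 1525 FPKM there and 112 to 199 FPKM elsewhere. The blood markers Hba-x, Hbb-bh1 and Gata1 summed to 76.2, 60.1 and 588 FPKM in the oxidized and 27.5, 61.8 and 596 FPKM in the reduced libraries, so both libraries of population C were high. Genes whose call or size depended on these libraries are given with and without them. In sorted bulk cells, a lower level per cell and fewer cells of a type cannot be told apart.

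No replication gene passed the test, where few genes of any kind did, so the lack of calls does not set them apart. For most of them the 95% interval, taken gene by gene, keeps the difference under a doubling or a halving of FPKM + 1. None of the 38 passed limma's test (adjusted p under 0.05 over all genes), where 97 of 12191 tested genes did, a background of 0.796% in either direction, 0.517% higher and 0.279% lower in oxidized cells. With the population entered as a block the 97 became 4. At an unadjusted p under 0.05, Cdt1 and Mcm3 were higher and Ccne1 and Pole lower, 10.5% of the 38, where the background was 19.4%, of which 13.5% higher and 5.93% lower. Rpa1, also higher, joined them with the population as a block (limma unadjusted p = 0.0173, and 0.124 without the block). Differences are given throughout as oxidized minus reduced in log2(FPKM + 1), and over the 38 genes they had a median of 0.05, beside 0.08 over all tested genes, and 22 of the 38 were positive where the share over all genes was 59.3%. For 35 genes the 95% interval of the difference lay within 1 log2 unit of 0, and the 3 others were Cdt1, Mcm3 and Rpa1. The median over the members turned to -0.04 with median-ratio scaling and -0.03 with quantile normalization, with the median of all genes at 0.00 and -0.01. The authors' deposited table marks 1 of the 38 as significant, Cdt1, where it marks 1.94% of all its genes.

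**Figure D1:**
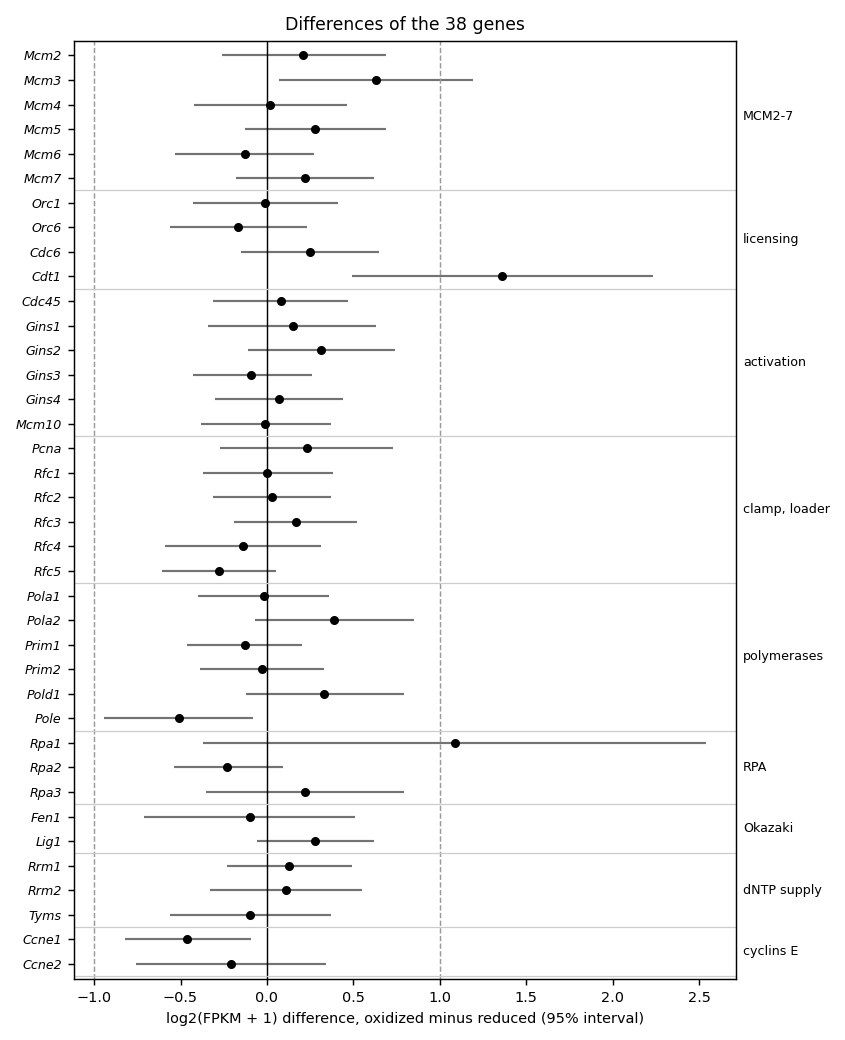
Difference, oxidized minus reduced in log2(FPKM + 1), of the 38 genes (x axis), by gene and role (y axis). Dots are estimates and lines 95% intervals from limma; dashed lines mark -1 and 1. The intervals of Cdt1, Mcm3 and Rpa1 pass 1, and those of the other 35 genes stay between the dashed lines.

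The summed level of the 38 genes differed between libraries of the same sort. It was 2108, 2123 and 1695 FPKM in the oxidized and 1855, 1907 and 1702 FPKM in the reduced libraries. Oxidized A and B were the highest of the 6 libraries and oxidized C the lowest. Within a population, the median difference over the 38 genes was 0.13 in A, 0.00 in B and -0.02 in C, and 28, 19 and 17 of the 38 genes were higher in the oxidized library. The same medians over all tested genes were 0.09, 0.14 and 0.00. The groups did not overlap for 6 of the 38 genes, 2 higher and 4 lower in oxidized cells, beside a background of 25% over all tested genes, 16.2% higher and 8.81% lower.

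**Figure D2:**
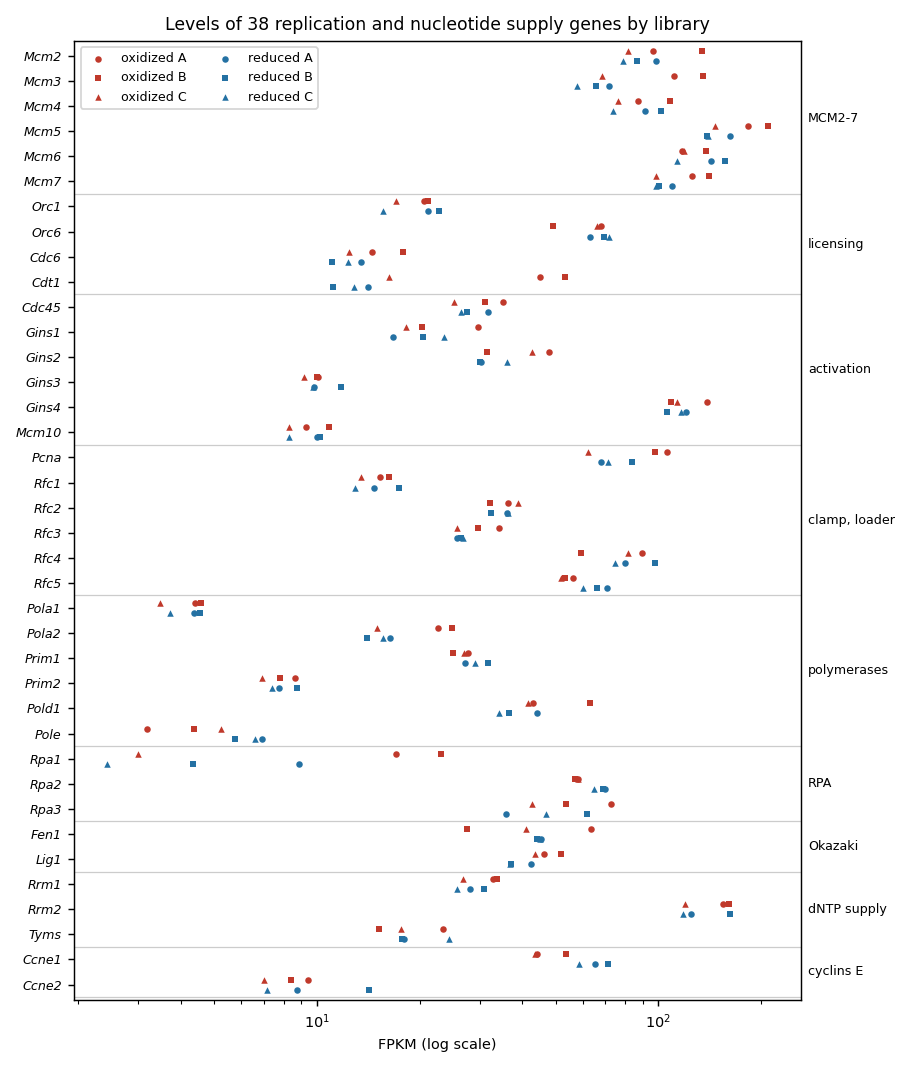
FPKM (x axis, log scale) of each of the 38 genes (y axis, by role) in the 3 oxidized (red, upper) and 3 reduced (blue, lower) libraries; marker shapes are populations A, B and C. Levels run from Pola1, at a mean of 4.18 FPKM, to Mcm5, at 163 FPKM, and the red circle and square of Cdt1 and of Rpa1 lie to the right of all other points of those genes.

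The helicase core was among the most abundant groups. MCM2-7 is the ring that unwinds the template, and its 6 subunits act in equal numbers in the complex. Mcm5, the most abundant of them, had 183, 209 and 147 FPKM in the oxidized and 162, 138 and 139 FPKM in the reduced libraries. Oxidized A and B were higher than every reduced library and oxidized C lay among them, so the groups overlapped (log2 difference 0.28, 95% interval -0.13 to 0.69, limma adjusted p = 0.420). The highest subunit stood 1.93 to 2.14 times above the lowest in the oxidized libraries and 2.26 to 2.40 times in the reduced ones.

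Mcm3 departed most from its partners. It had 111, 135 and 68.4 FPKM in the oxidized and 71.5, 65.7 and 57.9 FPKM in the reduced libraries. The oxidized A and B libraries were clearly high, while oxidized C was within the reduced range. The Mcm3 difference was 0.63 (SE 0.25, 95% interval 0.07 to 1.19) and did not pass limma's test (adjusted p = 0.213). It was 0.83 without population C (limma adjusted p = 0.0199), 0.91 without oxidized C (0.0165) and 0.08 with oxidized A and B left out (0.917). Mcm3 was at 0.949 and 0.981 of the Mcm6 level in oxidized A and B, at 0.573 in oxidized C and at 0.419 to 0.510 in the reduced libraries. Mcm3 was the least abundant subunit in oxidized C and in all 3 reduced libraries, and Mcm4 was in oxidized A and B. Mcm2 and Mcm7 had differences of 0.21 and 0.22, Mcm4 of 0.02 and Mcm6 of -0.13, with limma adjusted p-values of 0.510 or higher. Mcm7 shares 23.3% of its 50-base stretches with other annotated genes, so its level is uncertain.

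Genes of this machinery are classic targets of E2F transcription factors, which bind a short GC-rich element with a run of T or A at one end. The 250 bases before each start site in RefSeq's GRCm38.p6 promoters were searched on both strands for the element, spelled TTTCCCGC, TTTGGCGC, TTTCGCGC or TTTGCCGC. A match was found for 8 of the 30 members with a promoter sequence (26.7%), against 4.36% of the 8696 tested genes with one and 1.86% of all 32851 promoters. The share was 34.6% of the 26 G1/S regulators and 16.7% of the 36 other replication factors with a promoter sequence. The windows of 6 matched members are shown because they include the most abundant helicase genes and the licensing genes Orc1 and Cdc6, with the matched bases in capitals. They run 5′ to 3′ on the strand of the gene.
Mcm5: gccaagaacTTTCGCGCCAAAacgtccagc
Mcm6: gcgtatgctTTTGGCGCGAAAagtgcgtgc
Mcm7: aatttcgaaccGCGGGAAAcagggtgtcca
Orc1: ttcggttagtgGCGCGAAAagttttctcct
Cdc6: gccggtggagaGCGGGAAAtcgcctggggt
Pola1: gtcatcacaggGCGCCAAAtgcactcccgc

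The other matched members are Gins3 and Rfc3. In Mcm5 (chr8:75109347-75109376, plus strand) and Mcm6 (chr1:128359795-128359824, minus strand) 2 matches on opposite strands overlap, and Mcm6 has 1 further match. The other windows lie at chr5:138172030-138172059 (Mcm7, minus strand), chr4:108579416-108579445 (Orc1, plus strand), chr11:98908002-98908031 (Cdc6, plus strand) and chrX:93632275-93632304 (Pola1, minus strand). None of these 6 genes passed limma's test, and their differences lay between -0.13 and 0.28. The promoters of Cdt1, Rpa1, Mcm3 and Ccne1, which had 4 of the 5 largest differences of the 38, hold no match to these letters in this window. Pole, the remaining one, had no promoter sequence. Most of the 30 members with a sequence likewise hold no match, Pcna, Rrm2 and Tyms among them. Whether E2F factors act on any of these genes was not tested.

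Among the genes that license origins, Cdt1 had the largest difference of the 38. CDT1 brings MCM2-7 to origins in G1 and is destroyed in S phase, and geminin binds and blocks it. Cdt1 (chr8:122568015-122573554, GENCODE vM21) had 44.9, 53.4 and 16.2 FPKM in the oxidized and 14.1, 11.2 and 12.8 FPKM in the reduced libraries. All 3 oxidized libraries were above all 3 reduced ones, oxidized A and B by a wide gap and oxidized C by a narrow one. The mean was 38.2 ± 19.5 FPKM in the oxidized and 12.7 ± 1.48 FPKM in the reduced group (SD, n = 3 each), a log2 difference of 1.36 (SE 0.38, 95% interval 0.49 to 2.23, limma adjusted p = 0.126). The authors' deposited table gives a fold of 3.01 and a q-value of 0.00136 for Cdt1. No exon of Cdt1 overlaps another annotated gene, and none of its 50-base stretches occurs in another.

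The difference of Cdt1 rested on populations A and B. Within populations it was 1.60 in A, 2.16 in B and 0.32 in C. Without both libraries of population C, where it was smallest, the difference was 1.88 (limma adjusted p = 5.9e-05). With oxidized A and B left out it was 0.34. Geminin (Gmnn) had 83.4, 63.2 and 64.0 FPKM in the oxidized and 56.5, 69.4 and 79.9 FPKM in the reduced libraries, with overlapping groups. The ratio of Cdt1 to Gmnn was 0.539, 0.845 and 0.254 in the oxidized and 0.250, 0.161 and 0.160 in the reduced libraries.

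The other licensing genes were closer between the groups. Orc6, a subunit of the origin recognition complex and the most abundant licensing gene, had 67.9, 49.2 and 66.1 FPKM in the oxidized and 63.0, 69.4 and 71.9 FPKM in the reduced libraries, and only oxidized B stood apart from the rest. Orc1, which binds origins in G1, and Cdc6, the loading ATPase, had differences of -0.01 and 0.25, and Orc6 of -0.17, all with limma adjusted p-values of 0.450 or higher.

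**Figure D3:**
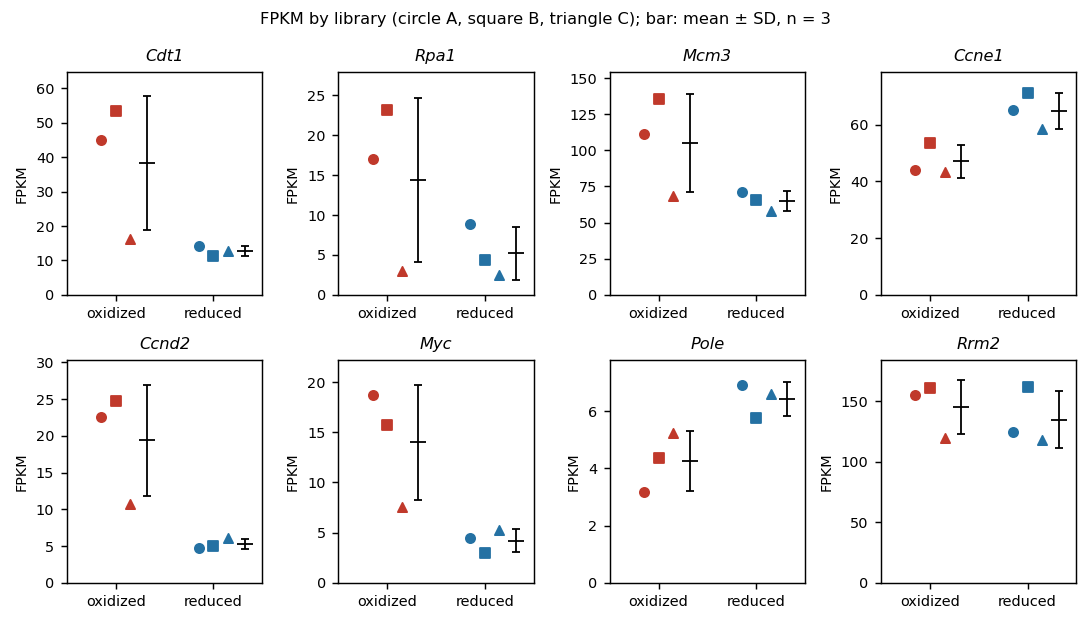
FPKM (y axis, from 0) of 8 genes in oxidized (red, left) and reduced (blue, right) libraries; shapes are populations A (circle), B (square) and C (triangle), and bars are means ± SD, n = 3. Cdt1, Rpa1 and Mcm3 are high in oxidized A and B and near the reduced level in oxidized C, Ccnd2 and Myc are above every reduced library in all 3, and Ccne1 and Pole are below every reduced library in all 3.

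The genes that activate the helicase gave no call and small differences, from -0.09 to 0.31. GINS is a ring of 4 proteins that joins CDC45 on the MCM complex. Gins4 was its most abundant member, with 139, 109 and 114 FPKM in the oxidized and 121, 106 and 116 FPKM in the reduced libraries. Gins2, with 47.8, 31.6 and 42.6 FPKM in the oxidized and 30.3, 30.1 and 36.1 FPKM in the reduced libraries, had the largest difference of this group (0.31, limma adjusted p = 0.383). Both genes overlapped between the groups. The Gins2 value is uncertain, as 67.3% of its exon bases lie under exons of Gse1 on the opposite strand, which averaged 2.66 FPKM. Gins1, Gins3, Cdc45 and Mcm10, which helps open the helicase, differed by 0.15, -0.09, 0.08 and -0.01. The 4 GINS subunits spanned a wide range of levels, from means of 9.75 FPKM for Gins3 to 121 FPKM for Gins4 in oxidized cells, and 10.4 to 114 FPKM in reduced cells.

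The sliding clamp and its loader gave no call and differences between -0.28 and 0.23. Pcna, the ring that tethers polymerases to DNA, had 106, 98.1 and 62.4 FPKM in the oxidized and 67.7, 83.6 and 71.4 FPKM in the reduced libraries. Oxidized A and B were the highest of the 6 libraries and oxidized C the lowest, and the difference of 0.23 did not pass limma's test (adjusted p = 0.594; -0.24 with oxidized A and B left out). Pcna shares 19.1% of its stretches with other annotated genes. Rfc5, a subunit of the clamp loader, had 56.2, 53.4 and 51.9 FPKM in the oxidized and 70.7, 66.2 and 60.0 FPKM in the reduced libraries. All oxidized libraries were below all reduced ones, with a difference of -0.28 (95% interval -0.61 to 0.05, limma adjusted p = 0.325). The loader subunits Rfc1, Rfc2, Rfc3 and Rfc4 differed by 0.00, 0.03, 0.17 and -0.14, all with overlapping groups.

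The polymerase genes differed in direction, none of them called. Pole encodes the catalytic subunit of polymerase epsilon, which copies the leading strand. It had 3.17, 4.35 and 5.25 FPKM in the oxidized and 6.92, 5.74 and 6.59 FPKM in the reduced libraries. Every oxidized library was below every reduced one (log2 difference -0.51, 95% interval -0.94 to -0.08, limma adjusted p = 0.196). Pold1, the catalytic subunit of polymerase delta on the lagging strand, had 42.8, 63.1 and 41.4 FPKM in the oxidized and 44.0, 36.6 and 34.1 FPKM in the reduced libraries, and the groups overlapped (log2 difference 0.33, limma adjusted p = 0.384). Of the polymerase alpha and primase subunits, which lay down primers, Pola2 differed by 0.39 (limma adjusted p = 0.324), with oxidized A and B high (-0.03 with these left out), and Pola1, Prim1 and Prim2 by -0.02, -0.13 and -0.03. The catalytic subunit Pola1 averaged 4.15 FPKM in the oxidized and 4.20 FPKM in the reduced group, the lowest of the 38 genes.

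RPA, the trimer that coats single-stranded DNA, had the most uneven subunit of the list. Rpa1, the large subunit that holds the DNA, had 17.1, 23.1 and 2.99 FPKM in the oxidized and 8.88, 4.33 and 2.44 FPKM in the reduced libraries. In each population the oxidized library was the higher one, but the libraries of a group lay far apart. The difference of 1.09 had a 95% interval of -0.37 to 2.54 in the fit on the group alone. That fit counts the spread between populations as error. Rpa1 was not called in it or with the population entered (limma adjusted p = 0.374, and 0.183 with the population as a block). Without population C the difference was 1.52 (adjusted p = 0.00162), and without oxidized A and B it was -0.50 (adjusted p = 0.715). Rpa2 had 58.1, 57.1 and 58.0 FPKM in the oxidized and 69.9, 68.7 and 64.6 FPKM in the reduced libraries, so the oxidized libraries were all lower (log2 difference -0.23, 95% interval -0.54 to 0.09, limma adjusted p = 0.395). The ratio of Rpa1 to Rpa2 was 0.294, 0.405 and 0.0516 in the oxidized and 0.127, 0.0630 and 0.0377 in the reduced libraries. Rpa3, the small subunit, differed by 0.22, with its highest value in oxidized A and its lowest in reduced A.

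The list holds a pair of enzymes that finish Okazaki fragments, and neither was called. Lig1, the ligase that seals them, had 46.4, 51.8 and 43.6 FPKM in the oxidized and 42.4, 37.1 and 36.8 FPKM in the reduced libraries. All oxidized libraries were above all reduced ones by a small margin (log2 difference 0.28, 95% interval -0.06 to 0.62, limma adjusted p = 0.341). Fen1, the nuclease that trims flaps, had 63.4, 27.5 and 41.1 FPKM in the oxidized and 45.4, 44.0 and 44.9 FPKM in the reduced libraries. The reduced libraries of Fen1 were nearly equal and the oxidized ones spread on both sides of them. The Fen1 value is uncertain, as 84.2% of its exon bases overlap other annotated genes on the opposite strand. Most of these bases lie under Gm10143, which averaged 0.5 FPKM.

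The enzymes of deoxynucleotide supply, whose reductase takes its electrons from the thiol systems, gave no call. Rrm1, the large subunit that holds the redox-active cysteines, had 32.8, 33.6 and 26.9 FPKM in the oxidized and 28.2, 30.9 and 25.8 FPKM in the reduced libraries (log2 difference 0.13, 95% interval -0.23 to 0.49, limma adjusted p = 0.683). Rrm2, the small subunit that carries the radical, had 155, 161 and 120 FPKM in the oxidized and 125, 162 and 118 FPKM in the reduced libraries (log2 difference 0.11, 95% interval -0.33 to 0.55, limma adjusted p = 0.775). In both genes population C was lowest in each group. The ratio of Rrm1 to Rrm2 ran over a narrow range, 0.208 to 0.224 in oxidized and 0.191 to 0.226 in reduced libraries. Tyms, which makes thymidylate, had 23.5, 15.2 and 17.6 FPKM in the oxidized and 18.0, 17.8 and 24.3 FPKM in the reduced libraries, and it was higher in the oxidized library in A and lower in B and C. The alternative small subunit Rrm2b, induced by p53, stayed under 1 FPKM in all 6 libraries and was not tested.

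Thioredoxins, glutaredoxins and their reductases were listed separately, 10 genes that need not all serve ribonucleotide reductase. None of the 10 was called by limma, where 0.796% of all tested genes were. At an unadjusted p under 0.05, 1 was lower (10%), beside 5.93% lower over all tested genes. Thioredoxin (Txn1) had 473, 344 and 293 FPKM in the oxidized and 251, 276 and 309 FPKM in the reduced libraries, so oxidized A and B were the highest and oxidized C lay within the reduced range (log2 difference 0.38, limma adjusted p = 0.345). Glutaredoxin (Glrx) had 5.74, 4.76 and 3.11 FPKM in the oxidized and 7.25, 8.12 and 6.10 FPKM in the reduced libraries, with all oxidized libraries below all reduced ones (log2 difference -0.58, 95% interval -1.07 to -0.10, limma adjusted p = 0.194). Glrx3, a glutaredoxin of iron-sulfur handling, had 89.0, 66.5 and 81.8 FPKM in the oxidized and 95.3, 106 and 96.7 FPKM in the reduced libraries, also without overlap (log2 difference -0.33, limma adjusted p = 0.302). These were the 2 genes of the list without overlap (20%, background 25% in either direction and 8.81% lower). The other glutaredoxins, Glrx2 and Glrx5, differed by -0.13 and 0.23, both with overlapping groups. The thioredoxin reductase gene Txnrd1 differed by 0.40 (limma adjusted p = 0.410) and by 0.68 without oxidized C (0.0482). It differed by 0.63 without population C (limma adjusted p = 0.0773) and by -0.17 with oxidized A and B left out.

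The E-type cyclins, which drive CDK2 at the entry to S phase, were the only role group with no positive difference. Ccne1 had 44.1, 53.6 and 43.4 FPKM in the oxidized and 65.1, 71.1 and 58.4 FPKM in the reduced libraries. Every oxidized library was below every reduced one, and the within-population differences were close to each other, -0.55 in A, -0.40 in B and -0.42 in C. The difference of -0.46 (SE 0.16, 95% interval -0.82 to -0.09) did not pass limma's test (adjusted p = 0.180), and it was -0.48 without population C and -0.56 without oxidized A and B. Ccne2 had 9.42, 8.41 and 6.98 FPKM in the oxidized and 8.75, 14.2 and 7.13 FPKM in the reduced libraries, and only reduced B stood apart. The Ccne2 value is uncertain too, as 17.4% of its exon bases lie under Ints8 on the opposite strand, which averaged 11.95 FPKM.

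Cyclin D2 was higher in oxidized cells. It was the 1 called gene among 31 tested regulators of the passage into S phase, where 0.796% of all tested genes were called. Ccnd2, which with CDK4 or CDK6 phosphorylates the retinoblastoma protein, had 22.6, 24.8 and 10.7 FPKM in the oxidized and 4.75, 5.01 and 6.06 FPKM in the reduced libraries. All oxidized libraries were above all reduced ones, oxidized C by less, and Ccnd2 rose by 1.62 on the log2 scale (SE 0.29, limma adjusted p = 0.0481; 0.0902 with the population as a block). The call was also lost when any 1 library but oxidized C was left out, with adjusted p-values of 0.0652 to 0.217, and with oxidized A and B left out the difference was 0.90 (limma adjusted p = 0.170). Myc, a transcription factor that promotes growth and division, had 18.7, 15.7 and 7.59 FPKM in the oxidized and 4.44, 2.95 and 5.22 FPKM in the reduced libraries, with no overlap and a difference of 1.47 (limma adjusted p = 0.0780). The Myc difference was 1.97 without population C (limma adjusted p = 5.98e-05), 1.83 without oxidized C (0.00236) and 0.75 with oxidized A and B left out (0.336). Ccne1 was 1.95, 2.16 and 4.06 times the level of Ccnd2 in oxidized A, B and C, and 13.7, 14.2 and 9.63 times in reduced A, B and C. Of 3 genes chosen after their values were seen, all with overlapping groups, cyclin D1 (Ccnd1) differed by -0.07, the transcription factor E2f1 by 0.06 and the CDK inhibitor Cdkn1a by 0.11. The list as a whole had a median difference of 0.15. At an unadjusted p under 0.05, 2 were higher and 1 lower (9.68%, background 19.4%). The groups did not overlap for 4 higher and 2 lower genes (19.4%, background 25%). Besides Ccnd2 and Myc these were Cdk4 (0.27), E2f6 (0.21), Cdk6 (-0.34) and Tfdp2 (-0.42). Ccna2 differed by 0.37, by 0.65 without oxidized C (limma adjusted p = 0.0426) and by 0.67 without population C (limma adjusted p = 0.0509). With oxidized A and B left out Ccna2 differed by -0.18.

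A list of 42 other replication factors had 0 calls by limma, where 0.796% of all tested genes were called, and a median difference of 0.04. At an unadjusted p under 0.05, 3 were higher and 2 lower, 11.9% of the list beside 19.4% of all tested genes. Cdc7 and Mcm8 were called higher without population C, at 0.75 and 0.82 (limma adjusted p = 0.0366 and 0.0233). Both were also called without oxidized C, and they differed by 0.03 and -0.05 with oxidized A and B left out. Mcmbp, which binds MCM proteins, had 28.3, 31.6 and 19.2 FPKM in the oxidized and 16.8, 18.0 and 17.7 FPKM in the reduced libraries, with all oxidized libraries above all reduced ones (log2 difference 0.53, limma adjusted p = 0.197). The Mcmbp difference was 0.75 without population C (limma adjusted p = 0.0318), 0.74 without oxidized C (0.0258) and 0.12 with oxidized A and B left out (0.842). Slbp, the histone mRNA binding protein of S phase, had 28.8, 26.9 and 29.4 FPKM in the oxidized and 33.7, 47.4 and 37.3 FPKM in the reduced libraries, with all oxidized libraries below (log2 difference -0.45, limma adjusted p = 0.201).

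Other genes of nucleotide supply, 38 of them tested, gave more negative than positive differences. Of these, 26 had negative and 12 positive differences, with a median of -0.12, where 59.3% of all tested genes were positive. The groups did not overlap for 8 lower genes and 1 higher gene, with the backgrounds of 8.81% lower and 16.2% higher. None was called by limma, where 0.796% of all tested genes were. At an unadjusted p under 0.05, 6 were lower and 0 higher, beside backgrounds of 5.93% lower and 13.5% higher. Prps1, which makes the ribose phosphate donor of purine and pyrimidine synthesis, had 84.5, 85.1 and 101 FPKM in the oxidized and 176, 209 and 134 FPKM in the reduced libraries. Every oxidized library was below every reduced one (log2 difference -0.91, SE 0.20, 95% interval -1.36 to -0.47, limma adjusted p = 0.0780). Impdh2, the rate-limiting enzyme of guanine nucleotide synthesis, had 95.4, 94.6 and 125 FPKM in the oxidized and 160, 154 and 140 FPKM in the reduced libraries, also without overlap (log2 difference -0.53, limma adjusted p = 0.154), and 39.3% of its stretches occur in other annotated genes. The purine synthesis gene Pfas, chosen after its values were seen, had 2.23, 2.98 and 11.0 FPKM in the oxidized and 13.3, 12.6 and 11.0 FPKM in the reduced libraries, a difference of -1.30 (limma adjusted p = 0.157). For Pfas it was -1.96 without population C (limma adjusted p = 4.75e-05), -1.88 without oxidized C (0.00087) and -0.14 with oxidized A and B left out (0.820). Prps1 and Impdh2 were also called lower without population C, at -1.17 and -0.72 (limma adjusted p = 0.00208 and 0.0356), and without oxidized C (0.0197 and 0.0380), and differed by -0.75 and -0.27 with oxidized A and B left out (0.333 and 0.637). The thymidine kinase gene Tk1 differed by 0.14 and the deoxynucleotide hydrolase gene Samhd1 by -0.08, both with overlapping groups and also chosen after their values were seen.

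**Figure D4:**
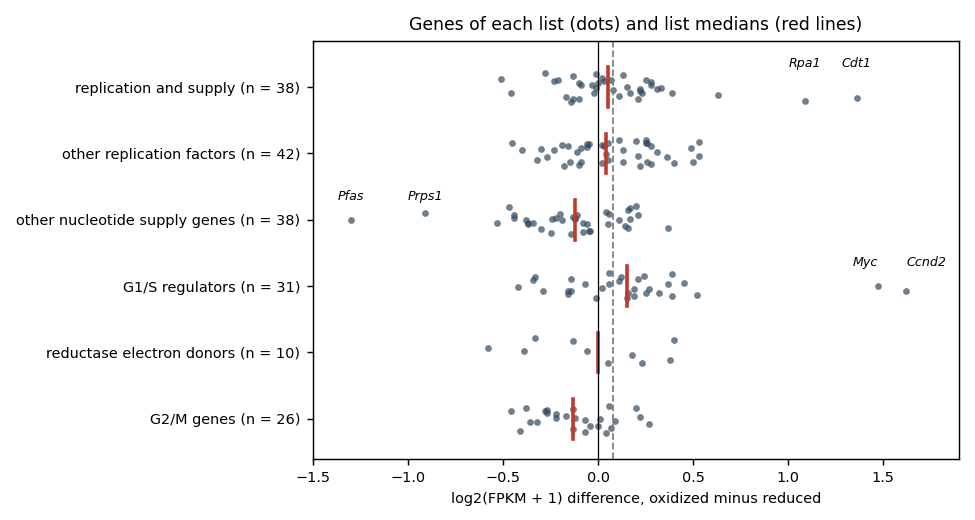
Differences of single genes (dots), oxidized minus reduced in log2(FPKM + 1) (x axis), for the 38 genes and 5 related lists (y axis, with the number tested); red lines are list medians and the dashed line is the median of all tested genes, 0.08. Medians run from -0.13 for G2/M genes to 0.15 for G1/S regulators, and the labelled genes are among those named in the text. The list labelled reductase electron donors holds the thioredoxin, glutaredoxin and reductase genes, not all of which need serve ribonucleotide reductase.

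Genes of the phases after S were measured beside them. Of 26 tested G2/M genes none was called by limma, where 0.796% of all tested genes were. At an unadjusted p under 0.05, 1 was lower (3.85%), beside 5.93% lower over all tested genes. Their median difference was -0.13, with 18 negative and 8 positive, where 59.3% of all tested genes were positive. Aurka, a mitotic kinase, had 78.4, 75.5 and 68.1 FPKM in the oxidized and 113, 104 and 91.2 FPKM in the reduced libraries, with every oxidized library below every reduced one (log2 difference -0.46, limma adjusted p = 0.166). Top2a, which untangles replicated DNA, had 32.1, 33.0 and 31.4 FPKM in the oxidized and 42.0, 55.0 and 34.8 FPKM in the reduced libraries, likewise without overlap (log2 difference -0.41, limma adjusted p = 0.267).

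The within-population differences show where the 38 genes parted. For 8 of the 38 (21.1%) the oxidized library was the higher one in all 3 populations, beside a background of 26.9%, and for 4 (10.5%) it was the lower one in all 3, beside 16.5%. For 7 (18.4%) it was higher in A and B and lower in C, beside 15.5%. Without both libraries of population C, Cdt1, Mcm3 and Rpa1 were called higher by limma, 7.89% of the 38 genes, where 12.9% of tested genes were called in either direction and 9.8% higher. Leaving out oxidized C alone called the same 3 genes, where 9.87% of tested genes were called and 7.36% higher. These 3 genes, like the genes of the other lists called in these fits, differed least in population C. Leaving out population C or its oxidized library thus favours such calls, and they add no support. With oxidized A and B left out, the lone oxidized library was assumed to vary like the reduced ones; limma then called 0 of the 38, with 1 at an unadjusted p under 0.05, beside 0.0911% of 12073 tested genes, 0.0497% higher. The part of the abundant transcripts that set oxidized A and B apart, and of the blood markers in population C, in these differences was not tested.

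**Figure D5:**
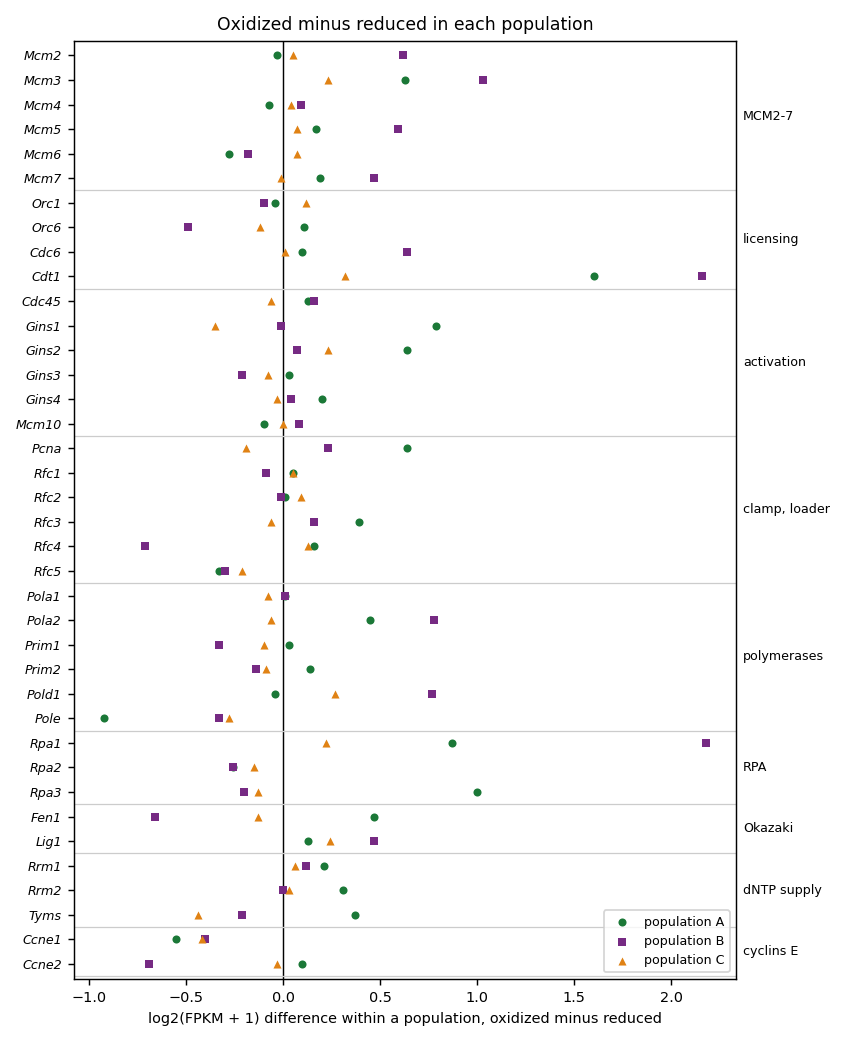
Difference between the oxidized and the reduced library of the same population (x axis, log2(FPKM + 1)) for each of the 38 genes (y axis, by role); shapes and colours are populations A, B and C. Cdt1 and Rpa1 reach 2.16 and 2.18 in population B and 0.32 and 0.22 in population C, and Ccne1 lies between -0.55 and -0.40 in all 3.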

How the data were processed

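The labels' protocols state poly(A) selection and stranded, paired-end libraries. The authors deposited a single gene table of FPKM values, per the file headers. Named in the submitters' processing notes are the tools cutadapt, FastQC, HISAT2, StringTie and edgeR, and build mm10, all without versions. In the authors' deposited table the fold is the ratio of mean FPKM, oxidized over reduced, and a log2 of it is listed too. Their deposited p-value and q-value are from a test that the headers leave unnamed. Because the unit is FPKM, count models were not used. Low values times transcript length were whole within 2% for 29.7% to 31.4% of values, too few to recover reads, and that step gave the estimated depth.

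A pseudocount of 1 was added before log2, and the 12191 genes averaging 1 FPKM or more were tested: limma 3.58.1 in R 4.3.3 was fitted on the group, with a mean-variance trend, two-sided, with Benjamini-Hochberg adjustment over all tested genes and a threshold of 0.05. Such differences understate the change of low genes. The code was tested on simulated data. Alternatives were the population as a block, median-ratio scaling, quantile normalization, no trend, no filter, a mean of 5 FPKM, a pseudocount of 0.1, leaving out each library, oxidized A with B, and population C. The members, lists and tests were chosen with earlier results of these data known, so no p-value over a list is given. In each role group the text gives every library for the gene with the smallest p and the most abundant one, for Rrm1, Rrm2, Tyms, Pcna, Ccne1 and Ccne2, and in each other list for called genes and the pair with the smallest p; other genes, such as Gmnn, Txn1 and Txnrd1, were chosen after their values were seen. The population letter pairs the libraries by the series' design text; deviations of same-letter libraries from their group means correlated at -0.056 for A, 0.07 for B and 0.199 for C. Gene positions, exon overlaps and shared 50-base stretches come from GENCODE vM21 on GRCm38, the assembly of mm10, and promoter sequences from RefSeq GRCm38.p6. How the authors counted multi-mapping fragments, and whether by strand, was not given in any source used here.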

Additional observations from a re-analysis of the deposited data

How the results depend on the processing

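Of the 38 genes, 0 were called by limma in 13 of the 15 alternatives, and the exceptions, without oxidized C and without population C, each called 3. Over all genes 97 calls became 4 with the replicate block, 1 with no filter, 11 without oxidized A and B, 1572 without population C, and 3 to 1204 when single libraries were left out. Leaving out single libraries gave 0 to 1 calls among the thioredoxin, glutaredoxin and reductase genes. It gave 0 to 3 among the 38 genes, other replication factors, other nucleotide supply genes and G1/S regulators. Without population C these counts were 3, 3, 3 and 2. The G1/S count was 0 with the replicate block, without the trend, with no filter and without oxidized A and B. The replicate block changed no call among the 38 genes. The median of the 38 was -0.13 without oxidized A and B. The 6 genes that averaged under 10 FPKM were Pola1, Pole, Prim2, Ccne2, Mcm10 and Rpa1. Counting error follows the number of fragments, and so transcript length as well as FPKM, and it was not measured by gene.

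Some uncalled differences changed sign, among them Rpa1, at 1.09 with all libraries, and Pola2, at 0.39; the cause was not tested. Median-ratio scaling gave -0.07 for Mcm4, -0.01 for Cdc45, -0.02 for Gins4 and -0.06 for Rfc2, and quantile normalization -0.08 for Mcm4, -0.02 for Cdc45 and -0.05 for Rfc2. Without oxidized A and B, the log2 difference was -0.10 for Mcm2, -0.21 for Mcm4, -0.07 for Mcm7, -0.17 for Cdc45, -0.13 for Gins1, -0.01 for Gins4, -0.24 for Pcna, -0.03 for Rfc3 and Pola2, -0.50 for Rpa1, -0.14 for Rpa3, -0.07 for Rrm1 and -0.15 for Rrm2. Without population C it was 0.01 for Pola1 and 0.08 for Tyms. Leaving out 1 library at a time, the differences ran from -0.11 to 0.14 for Mcm4, -0.03 to 0.20 for Cdc45, -0.05 to 0.28 for Gins1, -0.04 to 0.14 for Gins4, -0.03 to 0.10 for Rfc2, -0.26 to 0.03 for Rfc4, -0.40 to 0.19 for Fen1, -0.26 to 0.05 for Tyms, -0.16 to 0.09 for Orc1, -0.10 to 0.08 for Mcm10, -0.09 to 0.08 for Pola1, -0.10 to 0.05 for Prim2 and -0.40 to 0.05 for Ccne2.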
